A study of Mus musculus with 6 samples.

Results

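The 10 genes described here encode secreted cytokines and growth factors outside the chemokine family that senescent cells are known to release: Il1a, Il1b, Il1rn, Il6, Il11, Lif, Csf1, Csf2, Csf3 and Hgf. They were chosen by gene symbol among the 20723 symbols of the arrays, and each was read by 1 of 23346 probe sets. All cells were embryonic fibroblast lines (MEFs) from Ola129 mice, kept on gelatin in a medium with serum and with leukemia inhibitory factor, the protein that Lif encodes, and collected while they grew exponentially. Ink4a/Arf-/- cells gave 2 arrays of Ezh2 -/- cells and 2 arrays of Ezh2 fx/fx cells. Ink4a/Arf+/+ cells gave 1 array of Ezh2 -/- cells and 1 array of Ezh2 fx/fx cells. The titles give these genotypes, whereas the description of the series speaks of esiRNA against Ezh2, and the groups follow the titles. The sources used here do not state whether replicates came from separate cultures or embryos, whether a line is 1 clone, or how Ezh2 was deleted. A p-value therefore measures only the spread between these arrays, which may be technical. No label calls any of these cultures senescent.

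Cytokines of this group are the signalling part of the senescence-associated secretory phenotype. IL-1α, encoded by Il1a, acts at the top of that network through the IL-1 receptor and NF-kB, and Il6 is its best known output, while the antagonist encoded by Il1rn occupies the same receptor without activating it. IL-6, IL-11 and LIF signal through the shared receptor subunit gp130, encoded by Il6st, and through STAT3. The colony-stimulating factors act mainly on myeloid cells. HGF is made by mesenchymal cells such as fibroblasts and acts on epithelial cells through the receptor Met. Ezh2 is the methyltransferase of the Polycomb complex PRC2, and the Ink4a/Arf locus, which PRC2 is known to repress, encodes inhibitors of proliferation.

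The windows around the annotated start sites of the genes whose levels differed most, and of Il6 for contrast, are shown because NF-kB and AP-1 are the textbook regulators of this program. They come from RefSeq on build GRCm38.p6, are written 5′ to 3′ on the strand of the gene, and capitals mark matches to TGANTCA (the AP-1 motif) or an NF-kB motif (GGG, any 3 bases, TTCC), searched on both strands.
Lif, chr11:4257318-4257617, plus strand: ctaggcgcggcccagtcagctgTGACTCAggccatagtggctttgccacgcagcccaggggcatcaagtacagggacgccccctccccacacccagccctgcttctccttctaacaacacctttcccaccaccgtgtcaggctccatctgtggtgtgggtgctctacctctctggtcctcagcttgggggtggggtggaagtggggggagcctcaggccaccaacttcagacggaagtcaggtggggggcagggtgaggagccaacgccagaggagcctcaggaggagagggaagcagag
Il11, chr7:4778092-4778391, minus strand: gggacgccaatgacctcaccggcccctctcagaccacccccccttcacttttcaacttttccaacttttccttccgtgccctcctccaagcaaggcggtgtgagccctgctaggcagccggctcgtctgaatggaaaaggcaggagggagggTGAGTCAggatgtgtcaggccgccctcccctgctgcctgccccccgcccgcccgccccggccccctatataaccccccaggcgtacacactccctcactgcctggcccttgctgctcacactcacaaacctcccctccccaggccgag
Il1rn, chr2:24336610-24336909, plus strand: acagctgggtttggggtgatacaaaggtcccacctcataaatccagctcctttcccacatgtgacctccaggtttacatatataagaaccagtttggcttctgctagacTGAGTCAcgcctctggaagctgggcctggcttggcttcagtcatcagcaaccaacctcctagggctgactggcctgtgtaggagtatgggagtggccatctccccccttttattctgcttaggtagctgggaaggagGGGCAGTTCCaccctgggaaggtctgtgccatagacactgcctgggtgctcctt
Il1rn, chr2:24345121-24345420, plus strand: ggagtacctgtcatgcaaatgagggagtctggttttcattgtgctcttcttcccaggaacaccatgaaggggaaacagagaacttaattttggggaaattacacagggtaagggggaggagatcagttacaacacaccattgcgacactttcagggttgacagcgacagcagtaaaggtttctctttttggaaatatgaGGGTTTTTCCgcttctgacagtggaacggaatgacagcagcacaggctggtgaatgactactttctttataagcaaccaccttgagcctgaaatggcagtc
Hgf, chr5:16553651-16553950, plus strand: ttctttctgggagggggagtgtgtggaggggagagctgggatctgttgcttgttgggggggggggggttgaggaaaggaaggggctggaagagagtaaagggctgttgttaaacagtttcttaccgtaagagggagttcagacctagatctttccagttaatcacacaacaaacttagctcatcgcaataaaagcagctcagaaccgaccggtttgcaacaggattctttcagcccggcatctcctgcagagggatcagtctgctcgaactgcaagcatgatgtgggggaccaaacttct
Il6, chr5:30012864-30013163, plus strand: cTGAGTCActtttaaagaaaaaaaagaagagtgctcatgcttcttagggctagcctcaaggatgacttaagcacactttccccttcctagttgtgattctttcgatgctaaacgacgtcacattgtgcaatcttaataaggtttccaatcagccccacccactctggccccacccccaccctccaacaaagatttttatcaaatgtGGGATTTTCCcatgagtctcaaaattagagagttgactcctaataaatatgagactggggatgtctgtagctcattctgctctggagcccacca

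RefSeq windows were found for 9 of the 10 genes, 13 windows in all. TGANTCA occurred in 5 of the 13 windows (of Il1a, Il1rn, Il6, Il11 and Lif) and in 7.81% of all 32851 windows of the table. The NF-kB motif occurred in 5 of the 13 windows (of Il6, Csf1 and 3 of Il1rn, some of which overlap) and in 5.56% of all windows. The other motifs searched were TATAAA, found in 3 of the 13 windows (of Il1a, Il1b and Il1rn) and in 13.6% of all windows, and the STAT motif TTCNNNGAA, found in 0 of the 13 and in 8.30% of all windows. Matches of different motifs overlapped 0 times in the 13 windows. The windows of Hgf held none of the 4 motifs. CpG dinucleotides, which are dense at typical Polycomb targets, numbered 7 in the window of Lif, 6 in that of Hgf and 13 in that of Il11 printed above, beside a median of 7 over all windows. In the printed windows of Il1rn they numbered 1 and 4, and in that of Il6 3. A further window each of Il11, Hgf and Il1rn is not printed, and there CpG dinucleotides numbered 1, 7 and 5. The unprinted window of Il11 held 0 matches to the 4 motifs. These matches describe letters in a window and were not tied to binding in these cells.

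Levels are deposited log2 values, with medians of 8.25 to 8.32 in the table of the Ink4a/Arf-/- arrays and of 7.50 to 7.51 in that of the Ink4a/Arf+/+ arrays. The tables may have been normalized separately, which the sources used here do not state. Levels are therefore compared as differences within a table or as percentiles within an array. Ezh2 itself was lower by a log2 difference of -0.35 ± 0.08 (SE, n = 2 per genotype) in Ink4a/Arf-/- cells (limma, Benjamini-Hochberg adjusted p = 0.577) and by -0.36 between the Ink4a/Arf+/+ arrays. Cdkn2a, the gene of the Ink4a/Arf locus, lay at the 47.9th and 49.2nd percentile in Ink4a/Arf-/- Ezh2 -/- cells and the 49.6th and 49.2nd in Ink4a/Arf-/- Ezh2 fx/fx cells. In Ink4a/Arf+/+ cells it lay at the 63.6th with Ezh2 -/- and the 54.7th with fx/fx, a log2 difference of 0.71 (limma with borrowed spread, adjusted p = 0.0434), against -0.08 in Ink4a/Arf-/- cells. Its position in Ink4a/Arf-/- arrays was thus near that in the Ink4a/Arf+/+ fx/fx array. Where the probes of both genes lie relative to the deleted parts is not given, so these values check no label. The replicates of the 2 genotypes were shifted against each other to unequal degrees. Over all probe sets the median of replicate 1 minus replicate 2 was 0.018 for the Ezh2 -/- arrays and 0.084 for the fx/fx arrays, and results are given with and without fx/fx replicate 1 where that matters. In bulk RNA, fewer cells of a kind and less RNA per cell cannot be told apart.

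The first comparison asked whether cytokine transcripts differed with Ezh2 in cells that lack Ink4a/Arf. Hgf, Il1rn, Il11 and Lif lay higher in each Ezh2 -/- array than in either fx/fx array, by 1.24-fold to 1.29-fold, while Il6, Il1a, Il1b, Csf2 and Csf3 overlapped between genotypes and Csf1 differed by only 0.05. None of the 10 genes passed the test, which called 0.0% of all probe sets (limma over 23346 probe sets, adjusted p = 0.570 for Hgf, the lowest of the 10). At an unadjusted limma p below 0.05, 4 of the 10 genes were higher and 0 lower, against 2.8% of all probe sets higher and 4.12% lower. Both Ezh2 -/- arrays lay above both fx/fx arrays for 5 of the 10 genes, against 13.0% of all probe sets, and below them for 0, against 23.6%. Taking the sign alone, 7 of the 10 genes were higher, against 39.1% of all probe sets. The median difference of the 10 genes was 0.16, beside -0.03 over all probe sets. Other settings of the test called 0 of the 10 genes too, while calling 0.206% of all probe sets with a variance trend, 0.0245% without the dimmest 30%, 0.0557% without fx/fx replicate 2 and 0.0214% without Ezh2 -/- replicate 2. At an unadjusted p below 0.05 in either direction, limma had 5 of the 10 genes without fx/fx replicate 1 and 5 without fx/fx replicate 2, against 10.9% and 16.2% of all probe sets. Without Ezh2 -/- replicate 1 it had 4, against 2.67%, and without Ezh2 -/- replicate 2 it had 3, against 3.25%. The median difference of the 10 genes was 0.24 when Ezh2 -/- replicate 1 was left out and 0.12 when Ezh2 -/- replicate 2 was, beside -0.03 and -0.02 over all probe sets. It was 0.30 when fx/fx replicate 1 was left out and 0.04 when fx/fx replicate 2 was, beside 0.02 and -0.07 over all probe sets. The 4 genes named first had differences between 0.28 and 0.40 when any single array was left out.

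Hgf, the fibroblast-made growth factor for epithelial cells, differed most. Its log2 level was 8.31 and 8.25 in the Ezh2 -/- pair, against 7.91 and 7.91 in the fx/fx pair. The smallest gap between an Ezh2 -/- and an fx/fx array, 0.34, was larger than the gap within either pair of replicates. The difference was 0.37 ± 0.07 (SE, n = 2 per genotype; 95% interval 0.19 to 0.55), rank 165 of 23346 from the top, and did not pass over all probe sets (limma, adjusted p = 0.570, unadjusted p = 0.00253).

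Among the gp130 cytokines the arrays of the 2 genotypes did not overlap for Lif and Il11 and overlapped for Il6, and none of the 3 passed the test. Over all probe sets both Ezh2 -/- arrays lay above both fx/fx arrays for 13.0% and below them for 23.6%. Lif, which maintains mouse embryonic stem cells in culture and whose protein was in the medium of every group, stood at 9.93 and 9.98 in the Ezh2 -/- pair, against 9.66 and 9.61 in the fx/fx pair. Its replicates lay within 0.06 of each other in both genotypes, and the difference was 0.32 ± 0.07 (SE, n = 2 per genotype; limma, adjusted p = 0.577). Il11, a gp130 cytokine that fibroblasts secrete in fibrosis, stood at 8.48 and 8.47 in the Ezh2 -/- pair, against 8.19 and 8.10 in the fx/fx pair, so that again the groups did not overlap. This difference was 0.33 ± 0.08 (SE, n = 2 per genotype; limma, adjusted p = 0.577). Il6, the cytokine most often used to mark the secretory phenotype, stood at 4.43 and 4.81 in the Ezh2 -/- pair, against 4.60 and 4.36 in the fx/fx pair. These arrays overlapped, the replicates of the Ezh2 -/- cells differed by 0.39, and the interval of the difference ran from -0.23 to 0.51 around 0.14. Il6 was also among the dimmest probe sets, between the 3.46th and the 5.60th percentile of these 4 arrays.

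In the IL-1 family the arrays did not overlap for the antagonist Il1rn and overlapped for the agonists Il1a and Il1b, and none of the 3 passed the test. A lack of overlap was met upward by 13.0% of all probe sets and downward by 23.6%. Il1rn stood at 10.73 and 10.70 in the Ezh2 -/- pair, against 10.41 and 10.35 in the fx/fx pair, with no overlap. Its difference was 0.33 ± 0.07 (SE, n = 2 per genotype; limma, adjusted p = 0.577), and 0.36 without fx/fx replicate 1. Il1a stood at 5.81 and 5.79 in the Ezh2 -/- pair, against 5.83 and 5.41 in the fx/fx pair. The fx/fx arrays thus enclosed both Ezh2 -/- arrays, and the difference of 0.18 was 0.39 without fx/fx replicate 1 and -0.02 without fx/fx replicate 2. Il1b, which adjoins Il1a on mouse chromosome 2 and whose product needs cleavage by caspase-1, stood at 6.33 and 6.33 in the Ezh2 -/- pair, against 6.43 and 6.27 in the fx/fx pair. Its Ezh2 -/- arrays also lay between the fx/fx arrays, with a difference of -0.02 (95% interval -0.23 to 0.19).

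None of the colony-stimulating factors was clearly separated. Csf1, which sustains macrophages, stood at 11.91 and 11.90 in the Ezh2 -/- pair, against 11.84 and 11.86 in the fx/fx pair. Its arrays did not overlap, yet the difference was only 0.05 (95% interval -0.12 to 0.23; limma, adjusted p = 0.938). Csf2, the granulocyte-macrophage factor, stood at 5.32 and 5.34 in the Ezh2 -/- pair, against 5.69 and 5.14 in the fx/fx pair. The fx/fx arrays lay 0.55 apart, on either side of the Ezh2 -/- arrays, and the difference of -0.09 turned to 0.19 without fx/fx replicate 1 and was -0.36 without fx/fx replicate 2. Csf3, the granulocyte factor, stood at 7.20 and 7.11 in the Ezh2 -/- pair, against 7.27 and 7.12 in the fx/fx pair, which overlapped, with a difference of -0.05 (95% interval -0.26 to 0.17).

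**Figure D1:**
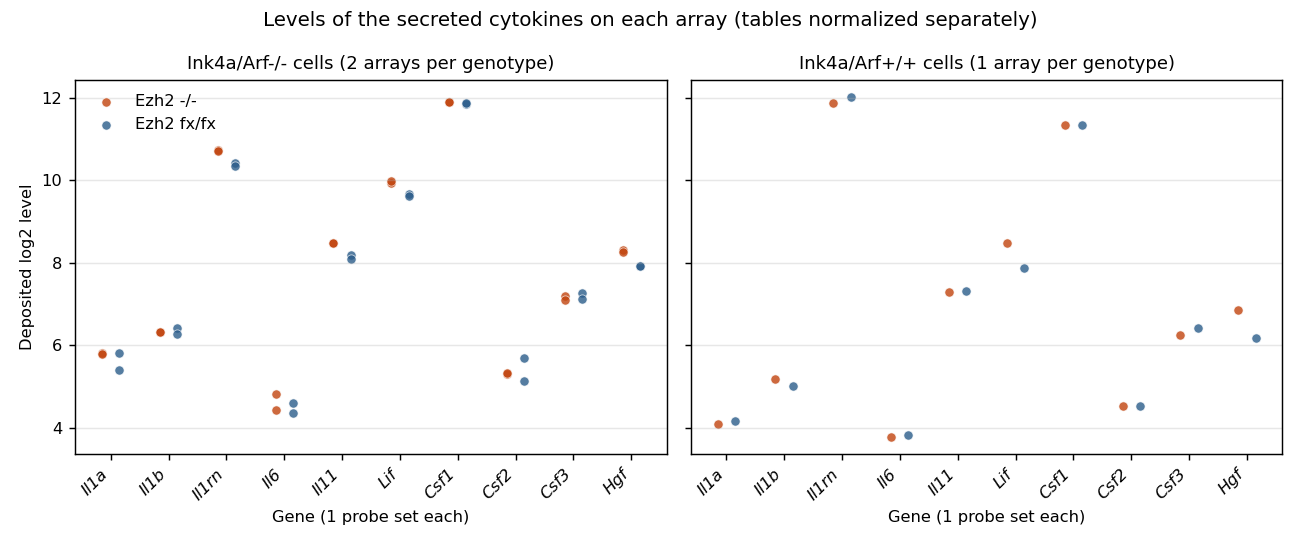
Deposited log2 level (vertical axis) of each cytokine gene on each array, with Ezh2 -/- arrays in orange and Ezh2 fx/fx arrays in blue. Ink4a/Arf-/- cells are in the left panel and Ink4a/Arf+/+ cells in the right. The panels come from separate tables, which may have been normalized separately. Each point is 1 array; the orange points of Hgf, Lif, Il11 and Il1rn lie above the blue ones in Ink4a/Arf-/- cells, and those of Hgf and Lif in Ink4a/Arf+/+ cells.

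In cells with an intact Ink4a/Arf locus, Hgf and Lif were again higher in the Ezh2 -/- array and the other cytokines differed little, with 1 array per genotype and so no replicate check. Hgf stood at 6.85 with Ezh2 -/- and 6.18 with fx/fx, a difference of 0.67 or 1.60-fold. Lif stood at 8.47 with Ezh2 -/- and 7.88 with fx/fx, a difference of 0.58. These placed Hgf at rank 475 and Lif at rank 616 of 23346 from the top. At 1.5-fold or more, 2 of the 10 genes were higher and 0 lower, beside 2.64% of all probe sets higher and 1.83% lower, with Lif just at the threshold. With a spread borrowed from the Ink4a/Arf-/- arrays, limma called Hgf alone of the 10 (adjusted p = 0.0386), beside 2.67% of all probe sets. At 2-fold or more 0 of the 10 genes differed, beside 0.797% of all probe sets higher and 0.313% lower.

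The remaining 8 genes lay between -0.17 and 0.15, within the range of -0.40 to 0.42 that held the middle 90% of all probe sets. Il1rn stood at 11.87 with Ezh2 -/- and 12.02 with fx/fx, a difference of -0.16, and Il11 at 7.30 with Ezh2 -/- and 7.32 with fx/fx, a difference of -0.03. Both genes were thus not higher in the Ezh2 -/- array of this background. Csf3 stood at 6.24 with Ezh2 -/- and 6.42 with fx/fx, a difference of -0.17. Il1b stood at 5.18 with Ezh2 -/- and 5.02 with fx/fx, a difference of 0.15. Il1a stood at 4.08 with Ezh2 -/- and 4.16 with fx/fx, and Il6 at 3.79 for Ezh2 -/- and 3.84 for fx/fx, differences of -0.08 and -0.05. Csf2 gave 4.53 for Ezh2 -/- and 4.54 for fx/fx, and Csf1 gave 11.33 for both, so neither differed by more than 0.01. In total 4 of the 10 genes were higher and 6 lower, with a median of -0.02, while 50.1% of all probe sets were higher.

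**Figure D2:**
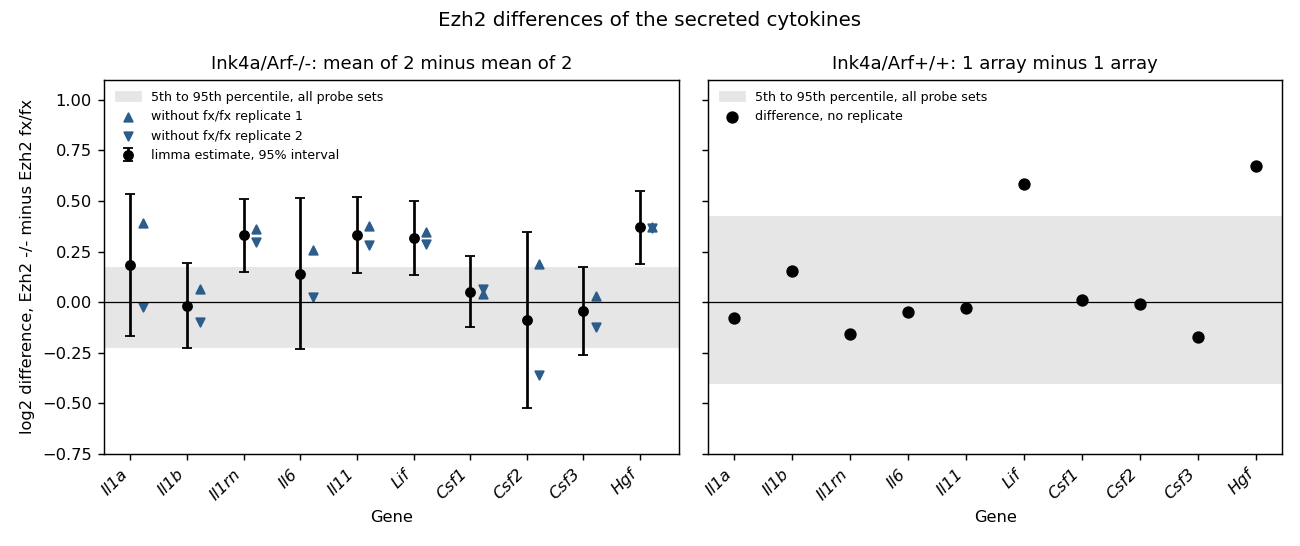
Log2 difference (vertical axis), Ezh2 -/- minus Ezh2 fx/fx, of each cytokine gene; black points are the estimates, bars the 95% interval of the limma fit in Ink4a/Arf-/- cells, triangles the value without 1 fx/fx array, and the grey band the 5th to 95th percentile of all probe sets. Hgf, Il1rn, Il11, Lif and, just above its edge at 0.17, Il1a at 0.18 lie above the band on the left, and Hgf at 0.67 and Lif at 0.58 above it on the right.

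Whether the Ezh2 difference itself differed between backgrounds was tested in the same limma fit, which assumes that the lone Ink4a/Arf+/+ arrays vary like the replicates. None of the 10 genes passed, while 0.407% of all probe sets did, and at an unadjusted p below 0.05 limma had 2 of the 10 (Il1rn and Il11), against 11.2% of all probe sets. A variance trend called Il1rn alone of the 10, beside 2.69% of all probe sets. The 10 genes gave 0 calls under quantile normalization (1.15% of all probe sets), the replicate block (0.0257%) and the filter on the dimmest 30% (1.95%). They also gave 0 calls without fx/fx replicate 1 (0.488%), fx/fx replicate 2 (1.05%), Ezh2 -/- replicate 1 (0.223%) or Ezh2 -/- replicate 2 (0.188%). Il1rn had the lowest p: its difference was larger in Ink4a/Arf-/- than in Ink4a/Arf+/+ cells by 0.49 ± 0.13 (SE; limma, adjusted p = 0.247, unadjusted p = 0.00935). For Il11 the value was 0.36 ± 0.13 (SE; limma, adjusted p = 0.406). Hgf and Lif went the opposite way, at -0.30 ± 0.13 and -0.27 ± 0.13 (SE; limma, adjusted p = 0.459 and 0.525). The 95% intervals ran from -0.62 to 0.01 for Hgf and from -0.59 to 0.05 for Lif, so a larger difference in Ink4a/Arf+/+ cells was not told from an equal one. Both arrays of Ink4a/Arf-/- Ezh2 -/- cells above their controls together with at least 1.5-fold in Ink4a/Arf+/+ cells was met by Hgf and Lif, and by 1.27% of all probe sets.

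The position of a probe set within its array allowed the backgrounds to be set side by side, without a test. The percentiles of Lif were the 72.7th and 73.8th in Ink4a/Arf-/- Ezh2 -/- cells, the 68.7th and 68.4th in Ink4a/Arf-/- Ezh2 fx/fx cells, the 61.6th in Ink4a/Arf+/+ Ezh2 -/- cells and the 54.4th in Ink4a/Arf+/+ Ezh2 fx/fx cells. Hgf followed the same order, with the 50.6th and 49.8th in Ink4a/Arf-/- Ezh2 -/- cells, the 44.2nd and 45.7th in Ink4a/Arf-/- Ezh2 fx/fx cells, the 41.8th in Ink4a/Arf+/+ Ezh2 -/- cells and the 32.5th in Ink4a/Arf+/+ Ezh2 fx/fx cells. Il1rn had another order, with the 83.8th and 83.6th in Ink4a/Arf-/- Ezh2 -/- cells and the 79.4th and 78.8th in Ink4a/Arf-/- Ezh2 fx/fx cells, below the 95.9th and the 96.5th in the Ezh2 -/- and fx/fx arrays of Ink4a/Arf+/+ cells. Csf1 stayed between the 93.1st and the 94.4th percentile on all 6 arrays and Il6 between the 3.46th and the 5.60th. Percentiles rank probe sets that differ in brightness, so they are not amounts of transcript.

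**Figure D3:**
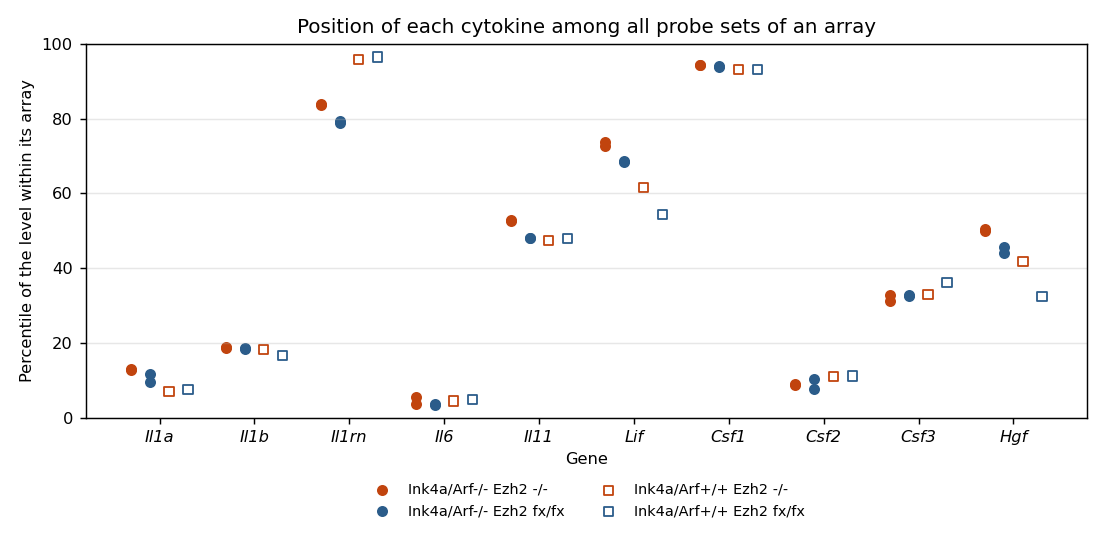
Percentile of each cytokine gene's level among all 23346 probe sets of its array (vertical axis, 0 to 100), with filled circles for Ink4a/Arf-/- and open squares for Ink4a/Arf+/+ arrays, orange for Ezh2 -/- and blue for fx/fx. Lif and Hgf step down from left to right over the 4 groups, Il1rn is higher in both Ink4a/Arf+/+ arrays, and Csf1 and Il6 stay in place.

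Over all probe sets 39.1% were higher in Ezh2 -/- cells without Ink4a/Arf, the share beside which the counts of related genes stand. Of 12 measured receptor genes 6 were higher and 6 lower in Ezh2 -/- cells without Ink4a/Arf, with a median of 0.01, and 0 passed limma over all probe sets or had an unadjusted p below 0.05. Met, the receptor of HGF, stood at 9.39 and 9.14 in the Ezh2 -/- pair, against 9.48 and 9.46 in the fx/fx pair, a difference of -0.21 ± 0.10 (SE, n = 2 per genotype; limma, adjusted p = 0.755). Between the Ink4a/Arf+/+ arrays Met differed by -0.51, with 8.69 on the Ezh2 -/- and 9.20 on the fx/fx array, so its value ran opposite to that of Hgf in both backgrounds. Il6ra, the IL-6 binding chain, differed by -0.24 ± 0.10 (SE, n = 2 per genotype; limma, adjusted p = 0.732) in Ink4a/Arf-/- cells and by -0.17 between the Ink4a/Arf+/+ arrays. Il6st, the shared gp130 subunit, differed by -0.02 in Ink4a/Arf-/- cells and by -0.47 between the Ink4a/Arf+/+ arrays, and the LIF receptor gene Lifr by 0.05 and 0.04. Il1rap, a co-receptor of IL-1, differed by 0.17 and 0.31. Il11ra1 had the largest difference of the list, 0.74 ± 0.53 (SE, n = 2 per genotype), but stood at 7.32 and 8.17 in the Ezh2 -/- pair, against 6.22 and 7.79 in the fx/fx pair, which overlap. It has a near-identical paralog, Il11ra2, and whether the probes tell them apart is not given.

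Among genes of IL-1 and NF-kB signalling, a list that also holds Casp1 and Il1rl1, 9 of 22 were higher in Ink4a/Arf-/- cells. The other 13 were lower, and the median was -0.03. Tnfaip3, an NF-kB target that restrains NF-kB, differed by 0.24 ± 0.08 (SE, n = 2 per genotype; limma, adjusted p = 0.689), and the NF-kB target Nfkbia by -0.03. Il1rl1, the receptor of IL-33 within the IL-1 receptor family, was the one gene of this list whose Ezh2 difference differed between backgrounds. It stood at 12.24 and 12.28 in the Ezh2 -/- pair, against 12.40 and 12.37 in the fx/fx pair, of Ink4a/Arf-/- cells. In Ink4a/Arf+/+ cells it stood at 10.08 with Ezh2 -/- and 11.69 with fx/fx. The difference was -0.13 in Ink4a/Arf-/- and -1.61 in Ink4a/Arf+/+ cells, and these differed by 1.49 ± 0.12 (SE; limma, adjusted p = 0.0237), a call lost with the replicate block (0.0857) and without Ezh2 -/- replicate 2 (0.0539). Its ligand gene Il33 differed by 0.03 and -0.07.

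Of the gp130 and STAT signalling genes 15 of 19 were higher in Ink4a/Arf-/- cells, with a median of 0.07 that was -0.004 without fx/fx replicate 2, and 0 passed. The STAT3 targets Socs3 and Junb differed by 0.04 and 0.09. Between the Ink4a/Arf+/+ arrays 10 of 19 were higher, with a median of 0.03. Bcl3, an NF-kB cofactor, differed there by -0.86 and in Ink4a/Arf-/- cells by -0.17, and Socs2 by 0.52 and 0.05. Other ligands of the IL-6 and IL-1 families, listed with Il34, had a median of 0.002 in Ink4a/Arf-/- cells, 5 of 9 higher. Among them Osm, the gene next to Lif on chromosome 11, differed by 0.06 and by 0.07 between the Ink4a/Arf+/+ arrays. Il34, the second ligand of the CSF1 receptor, differed by -0.10 in Ink4a/Arf-/- cells and by 0.51 between the Ink4a/Arf+/+ arrays (limma for the difference between backgrounds, adjusted p = 0.199).

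Genes that activate or inhibit HGF were listed with the intracellular adaptor genes Gab1 and Grb2, and none of this list passed the test. In Ink4a/Arf-/- cells 3 of the 7 were higher, with a median of -0.01. Spint1, an inhibitor of the HGF activator, differed by 0.27 ± 0.09 (SE, n = 2 per genotype; limma, adjusted p = 0.686) and by -0.19 between the Ink4a/Arf+/+ arrays. St14, a protease that activates HGF, differed by -0.01 and by 0.56. Among 20 other secreted growth factors 15 were higher in Ink4a/Arf-/- cells and 16 between the Ink4a/Arf+/+ arrays, with medians of 0.04 and 0.07, and 0 passed in Ink4a/Arf-/- cells. Fgf2, a fibroblast mitogen, stood at 11.63 and 11.55 in the Ezh2 -/- pair, against 11.16 and 11.31 in the fx/fx pair. It differed by 0.36 ± 0.09 (SE, n = 2 per genotype; limma, adjusted p = 0.592) and by 0.54 between the Ink4a/Arf+/+ arrays, values close to those of Hgf and Lif. Pdgfb and Fgf7 differed by 0.27 and 0.25 in Ink4a/Arf-/- cells and by 0.04 and 0.06 between the Ink4a/Arf+/+ arrays. Il7, a lymphocyte growth factor, stood at 6.49 and 6.52 in the Ezh2 -/- pair, against 6.76 and 6.67 in the fx/fx pair, a difference of -0.21 ± 0.08 (SE, n = 2 per genotype; limma, adjusted p = 0.692). Angpt1, the ligand of the endothelial receptor Tek, differed by 0.04 in Ink4a/Arf-/- cells and by 1.43 between the Ink4a/Arf+/+ arrays, with 8.54 on the Ezh2 -/- and 7.11 on the fx/fx array, and these differences differed by -1.39 ± 0.15 (SE; limma, adjusted p = 0.0448). That call was lost with the replicate block (0.0973), without Ezh2 -/- replicate 1 (0.0783) and without Ezh2 -/- replicate 2 (0.0895).

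**Figure D4:**
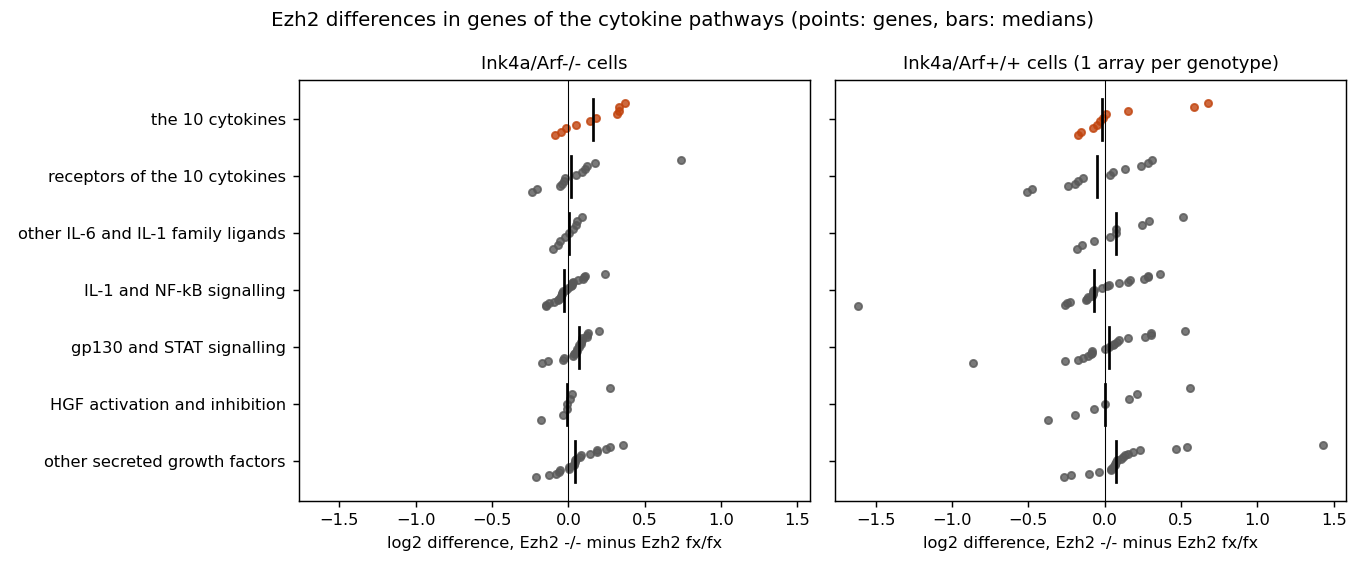
Log2 difference (horizontal axis), Ezh2 -/- minus Ezh2 fx/fx, of single genes (points) in the 10 cytokines and 6 lists of related genes, with the list median as a bar; Ink4a/Arf-/- cells on the left and Ink4a/Arf+/+ cells on the right. The medians of the 6 lists lie between -0.03 and 0.07 on the left, below the 0.16 of the cytokines, and the most extreme genes on the right are Il1rl1 at -1.61 and Angpt1 at 1.43.

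Markers of cells that make or sense these cytokines were read beside them. Over all probe sets 39.1% were higher in Ink4a/Arf-/- cells and 50.1% between the Ink4a/Arf+/+ arrays. The 9 measured macrophage and leukocyte markers had a median difference of 0.02 in Ink4a/Arf-/- cells, 5 of 9 higher, and 0.12 between the Ink4a/Arf+/+ arrays, 7 of 9 higher. Their summed level, as log2, was 11.89 and 11.98 in the Ezh2 -/- pair, against 12.07 and 11.71 in the fx/fx pair, of Ink4a/Arf-/- cells, and these overlapped. It was 9.47 on the Ezh2 -/- and 9.23 on the fx/fx array of Ink4a/Arf+/+ cells. Lyz2, a lysozyme of myeloid cells, differed by 0.10 in Ink4a/Arf-/- and by 1.56 in Ink4a/Arf+/+ cells, with 7.29 for Ezh2 -/- and 5.72 for fx/fx in the latter. Lyz2 stood apart from the other markers. Between the Ink4a/Arf+/+ arrays the next highest was Ptprc at 0.30, with Emr1 at 0.12, Cd14 at 0.04, Itgam at -0.02 and Cd68 at -0.28. Lyz2 was also the brightest of the 9 on the Ink4a/Arf-/- arrays, so it weighs most in their summed level. The percentiles of Lyz2 were the 85.2nd and 87.0th in Ink4a/Arf-/- Ezh2 -/- cells and the 87.2nd and 82.1st in Ink4a/Arf-/- Ezh2 fx/fx cells. In Ink4a/Arf+/+ cells they were lower, the 47.3rd with Ezh2 -/- and the 25.7th with fx/fx. The part of such cells in the differences of Hgf and Lif was not tested. The summed log2 level of the 8 fibroblast markers was 15.71 and 15.75 in the Ezh2 -/- pair, against 15.71 and 15.71 in the fx/fx pair, of Ink4a/Arf-/- cells. In Ink4a/Arf+/+ cells it was 15.69 on the Ezh2 -/- and 15.75 on the fx/fx array. These sums are not compared between the backgrounds. The markers had a median difference of 0.01 in Ink4a/Arf-/- cells, 5 of 8 higher. Between the Ink4a/Arf+/+ arrays the median was -0.15, with 1 of 8 higher and 7 lower. That shift stood beside the higher Hgf and Lif of the Ink4a/Arf+/+ Ezh2 -/- array, and its part in them was not tested. Pdgfra, a fibroblast receptor, differed by -0.17 in Ink4a/Arf-/- cells and by -1.41 between the Ink4a/Arf+/+ arrays. Pdgfrb, the 1 fibroblast marker that was higher between the Ink4a/Arf+/+ arrays, differed by 0.18 and by 0.44. The pluripotency markers, of interest since the medium held leukemia inhibitory factor, differed by a median of 0.03 and 0.15, with Pou5f1 at 0.12 and 0.39. Endothelial and epithelial markers had medians of 0.01 and 0.02 in Ink4a/Arf-/- cells and of 0.08 and 0.13 between the Ink4a/Arf+/+ arrays. The 3 skeletal muscle markers had medians of 0.07 and -0.07, with Des, a muscle filament gene, at 0.15 and -1.75 (limma for the difference between backgrounds, adjusted p = 0.0235; 0.0857 with the replicate block). Array levels have no true zero, so no marker can be called absent.

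Genes whose levels followed Hgf and Lif most closely were sought over the 6 arrays after each table was centred per probe set. Only named genes with a current symbol were ranked. For Hgf they were Ptgs1, a cyclooxygenase, with r = 0.999, Spats2l with 0.998 and Sema6d, a semaphorin, with 0.998. Their differences in Ink4a/Arf-/- and between the Ink4a/Arf+/+ arrays were 0.11 and 0.18, 0.32 and 0.58, and 0.19 and 0.34. For Lif they were Mbd3l2 with r = 0.999, Eda2r, a p53 target and death receptor relative, with 0.999, and Abhd4 with 0.998. Eda2r differed by 0.67 in Ink4a/Arf-/- cells and by 1.15 between the Ink4a/Arf+/+ arrays. These values describe only 6 arrays in 2 tables and were not tested. Of all 23346 probe sets, 53 others had an r above 0.99 with Hgf and 44 with Lif.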

How the data were processed

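The authors deposited log2 levels per array in 1 table for each Ink4a/Arf background, beside p-values and log2 fold changes, per the file headers. The submitters' processing notes name limma with no version; normalization and build: not given in the sources used here. The series matrix holds the same values. All 10 symbols are current mouse symbols. With limma 3.58.1 in R 4.3.3, 1 mean per group was estimated from all 6 arrays, two-sided, with Benjamini-Hochberg adjustment over 23346 probe sets and a threshold of 0.05. The Ink4a/Arf+/+ groups have 1 array each, so the Ink4a/Arf-/- replicates alone supply the spread, and so few arrays limit the precision. The 10 genes and the lists were chosen with earlier results of these data known. Lists used 1 probe set per gene, the brightest, and named their genes by the largest differences in each background. Cntf and Adgre1 were not found among the symbols; Emr1, the older symbol of Adgre1, was. A few genes that complete a pathway were named after their values were seen. The fit was tested on simulated data. Alternatives were a replicate block, quantile normalization, leaving out the dimmest 30%, a variance trend, the authors' p-values and leaving out each replicate.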

Additional observations from a re-analysis of the deposited data

Results flagged for a closer look

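Il1rn and Il11 were higher in both Ezh2 -/- arrays of Ink4a/Arf-/- cells and below the fx/fx array with Ezh2 -/- when Ink4a/Arf was intact. The Ezh2 difference of Il1rn was 0.33 in Ink4a/Arf-/- and -0.16 in Ink4a/Arf+/+ cells, a gap of 0.49 that did not pass limma over all probe sets (adjusted p = 0.247). For Il11 the differences were 0.33 and -0.03, a gap of 0.36 (limma, adjusted p = 0.406). Of the 89 pathway genes read beside the cytokines, 2 passed the limma test of the difference between backgrounds. So did 1 of the 3 skeletal muscle markers and 0 genes of the other marker lists, beside 0.407% of all probe sets. The gap was 1.49 for Il1rl1 (adjusted p = 0.0237), -1.39 for Angpt1 (adjusted p = 0.0448) and 1.89 for Des (adjusted p = 0.0235). Each of the 3 rests on a single pair of Ink4a/Arf+/+ arrays, and all 3 calls were lost with the replicate block (limma, adjusted p = 0.0857 for Il1rl1, 0.0973 for Angpt1 and 0.0857 for Des). The call of Il1rl1 was also lost without Ezh2 -/- replicate 2 (0.0539), and that of Angpt1 without Ezh2 -/- replicate 1 (0.0783) or 2 (0.0895).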

How the results depend on the processing

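The count of cytokine genes called in Ink4a/Arf-/- cells was 0 in each setting, including the replicate block, the authors' p-values and each left-out array (0 to 0), and so was that of the 89 pathway genes (0 to 0). Whether same-numbered replicates share more than a number is not given. Their deviations correlated at 0.026 over probe sets, which cannot settle it with 1 pair of replicates per genotype. The replicate block gave 0 calls over all probe sets for Ezh2 loss. In a setting chosen after seeing the data, it gave 6 for the difference between backgrounds, against 95 without the block. In Ink4a/Arf+/+ cells 2 genes differed at 1.5-fold (Lif and Hgf) and 1 (Hgf) in limma with a borrowed spread (adjusted p = 0.0386; 0.0544 for Lif), against 0 at 2-fold. A variance trend called 1 cytokine gene, Il1rn, for the difference between backgrounds, and leaving out single arrays 0 to 0. For Hgf, Il1rn, Il11, Lif and Csf1, whose arrays do not overlap, leaving out 1 array cannot turn the sign. Leaving out single arrays took Il6 between -0.052 and 0.33, Il1a between -0.024 and 0.39, Il1b between -0.099 and 0.063, Csf2 between -0.36 and 0.19 and Csf3 between -0.12 and 0.031, so each changed sign; the cause was not tested. Csf3 was 0.00017 without Ezh2 -/- replicate 2, and Il1b was 0.021 after quantile normalization. The dimmest 30% held Il6, Il1a, Il1b and Csf2. Each cytokine gene has 1 probe set, so averaging probe sets changes nothing. The number of probe sets called in Ink4a/Arf-/- cells was 0 in the main setting, 48 with a variance trend, 4 without the dimmest 30%, 13 without fx/fx replicate 2 and 5 without Ezh2 -/- replicate 2. For the difference between backgrounds it was 627 with a variance trend, 319 without the dimmest 30%, 268 after quantile normalization, and 44 to 245 without single arrays.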
